A study of Mus musculus with 10 samples.

Results

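The dentate gyrus at 12 weeks of age was compared with the dentate gyrus at 8 and 10 weeks, using 6 of the 10 arrays of a series on mice of 4 to 12 weeks. The arrays were chosen by the age in their titles: 2 arrays of 12 weeks against 2 arrays of 8 weeks and 2 arrays of 10 weeks. All were whole-transcript Affymetrix arrays hybridised with total RNA from dentate gyri that had been micro-dissected with a needle tip, teased apart with tweezers and pipetted up and down with DNase. The labels give no treatment, write the strain C56BL/6J and call the mice female. Whether both arrays of an age stand for separate animals, pools or 1 extract is not stated in the labels. Every p-value below therefore measures only how far these arrays spread, and that spread may be technical. The question was what sets 12 weeks apart in acute-phase, vascular, microglial, immediate-early, stress and clock genes, and whether both 12-week arrays show it.

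The gene groups asked about report on different processes. Acute-phase genes encode secreted proteins and enzymes that inflammatory cytokines induce through NF-kappaB and STAT3 signalling, in brain largely in astrocytes, vessels and microglia. Immediate-early genes are transcribed within minutes of neuronal firing or of tissue handling, heat shock genes follow protein misfolding through heat shock factors, and clock genes cycle over the day. A dentate gyrus extract mixes granule neurons with glia and vessels, so a lower or higher level of a cell type's genes cannot tell fewer or more cells from less or more RNA per cell.

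Levels are on the log2 scale of the deposited values, so a difference of 1 stands for 2-fold. A gene was called dim where its mean lay under 7.01, the 95th percentile of 1207 olfactory, vomeronasal and trace amine receptor genes. A change is the mean of the 12-week arrays minus the mean of 8 and 10 weeks, with its standard error, and adjusted p-values are limma's with Benjamini-Hochberg adjustment over all 19752 genes. The 6 arrays had like medians, within the range of 8.27 to 8.31 seen over all 10, and the 2 arrays of 12 weeks correlated with r = 0.9977 across genes. The array that correlated least with the rest was 8 weeks replicate 1 (mean r = 0.9952), which also had the narrowest range of levels by SD (2.12). Granule cell markers were at like levels at 12 weeks and before: Prox1, the transcription factor that specifies granule cells, was at 12.25 and 12.29 at 12 weeks and between 12.15 and 12.38 at 8 and 10 weeks. The sex label went against the data on all 6 arrays, since Xist, transcribed from the inactive X chromosome, stood at 5.79 to 6.02, below the dim level, while the Y-linked genes Eif2s3y (8.59 to 9.07), Kdm5d (8.89 to 9.17) and Uty (9.10 to 9.26) stood above it.

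Lcn2, which encodes lipocalin 2, a secreted protein that binds iron-carrying siderophores and is a hallmark of the acute-phase response, was the only gene that passed the test between 12 weeks and the reference ages. It lies on chromosome 2 (GRCm38.p6, 32384637 to 32387739). Its level was 10.42 on 12 weeks replicate 1 and 9.69 on replicate 2, against 7.05 and 6.84 at 8 weeks and 7.09 and 7.06 at 10 weeks. Both 12-week arrays thus lay far above all 4 reference arrays, which sat at about the dim level. Lcn2 rose by 3.04 ± 0.27, or 8.24-fold (adjusted p = 0.029), by 3.41 on replicate 1 and by 2.68 on replicate 2 when each was set alone against the 4 arrays. A fold from a level near the dim level is only approximate. At younger ages Lcn2 was at 6.70 and 6.66 (4 weeks) and at 8.54 and 7.47 (6 weeks). The array of 6 weeks replicate 1 also carried choroid plexus genes, with a mean level of 8.80 over 11 markers against 7.37 to 7.63 on the 9 other arrays, whose part in its Lcn2 level was not tested. On the 12-week arrays that mean was 7.39 and 7.49.

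Leaving out one array at a time kept the direction and the size of the Lcn2 difference, with changes between 2.68 and 3.41, but 8 of the 10 arrays were each needed for the call. The adjusted p by limma was 0.10 without either array of 4 weeks, 0.06 without either array of 8 weeks, and 0.23 and 0.15 without the first and the second array of 10 weeks. It was 0.15 when 12 weeks replicate 1 was left out and 0.067 when replicate 2 of that age was. With 12 weeks against 10 weeks alone the change was 2.98 (adjusted p = 0.11), and against 8 weeks alone 3.11 (0.08).

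The promoters of Lcn2 and of Ch25h, the acute-phase list members with the largest differences, are shown as the 250 bases that precede the transcription start in RefSeq (GRCm38.p6, both on the minus strand). They lie at chr2:32387740-32387989 and chr19:34475149-34475398. That of Hspa1a, chosen after its values were seen as the heat shock gene with the largest difference, lies at chr17:34972157-34972406, also on the minus strand. Capitals mark a match to one of 5 motifs searched on both strands. In all 7 windows were searched, and those of Acer2, Lrg1, S100a8 and Cyyr1, which held no match, are not shown.
Lcn2: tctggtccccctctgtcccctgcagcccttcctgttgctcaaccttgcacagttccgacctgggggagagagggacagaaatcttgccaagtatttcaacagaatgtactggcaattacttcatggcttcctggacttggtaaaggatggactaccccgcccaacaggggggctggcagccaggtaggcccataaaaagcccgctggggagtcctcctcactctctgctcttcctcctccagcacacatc
Ch25h: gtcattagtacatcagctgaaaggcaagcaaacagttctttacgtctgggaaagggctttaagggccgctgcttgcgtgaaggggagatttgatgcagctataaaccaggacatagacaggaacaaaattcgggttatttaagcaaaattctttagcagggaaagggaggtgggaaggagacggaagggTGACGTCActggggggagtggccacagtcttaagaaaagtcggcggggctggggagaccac
Hspa1a: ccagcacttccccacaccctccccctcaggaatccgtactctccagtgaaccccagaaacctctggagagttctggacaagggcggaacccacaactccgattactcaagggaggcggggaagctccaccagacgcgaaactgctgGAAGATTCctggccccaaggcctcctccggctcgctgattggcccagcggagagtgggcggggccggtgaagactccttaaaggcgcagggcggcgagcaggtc
The motifs were the heat shock element GAANNTTC, the E-box CACGTG, the cAMP response element TGACGTCA, the STAT element TTCNNNGAA and the palindromic glucocorticoid element. None of the 5 was found in these letters of the Lcn2 window. The Ch25h window held a cAMP response element from base -61 to base -54 before the start, a motif that 1.55% of 32851 promoter windows of that length hold. The Hspa1a window held a heat shock element from base -104 to base -97, a motif found in 6.69% of windows. The E-box was present in 6.02%, the STAT element in 7.02% and the glucocorticoid element in 0.368% of windows. A match describes the letters only.

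Across the whole table, 1 of 19752 genes was called higher at 12 weeks (0.00506%) and 0 lower by limma. At an unadjusted p under 0.05 there were 1518 genes (7.69%), of which 551 (2.79%) were higher and 967 (4.9%) lower. Between the reference ages themselves, 10 against 8 weeks, 0 genes were called and 946 (4.79%) had an unadjusted p under 0.05. With trended and robust variances in limma the comparison of 12 weeks with 8 and 10 weeks called 18 genes, 16 higher and 2 lower. Because so few genes were called, the lists below are also described by how many members had both 12-week arrays above, or both below, all 4 arrays of 8 and 10 weeks. Over all genes 6.23% lay above and 10.4% below in this sense, and 3.01% lay above and 4% below all 8 earlier arrays. Among the 14393 genes above the dim level these shares were 7.49%, 9.37%, 3.62% and 4.66%. After quantile normalization the split over all genes was 8.23% above and 8.62% below. The median change of all genes was −0.02. The lists were chosen with earlier results of these data known, so their shares are no independent test.

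**Figure D1:**
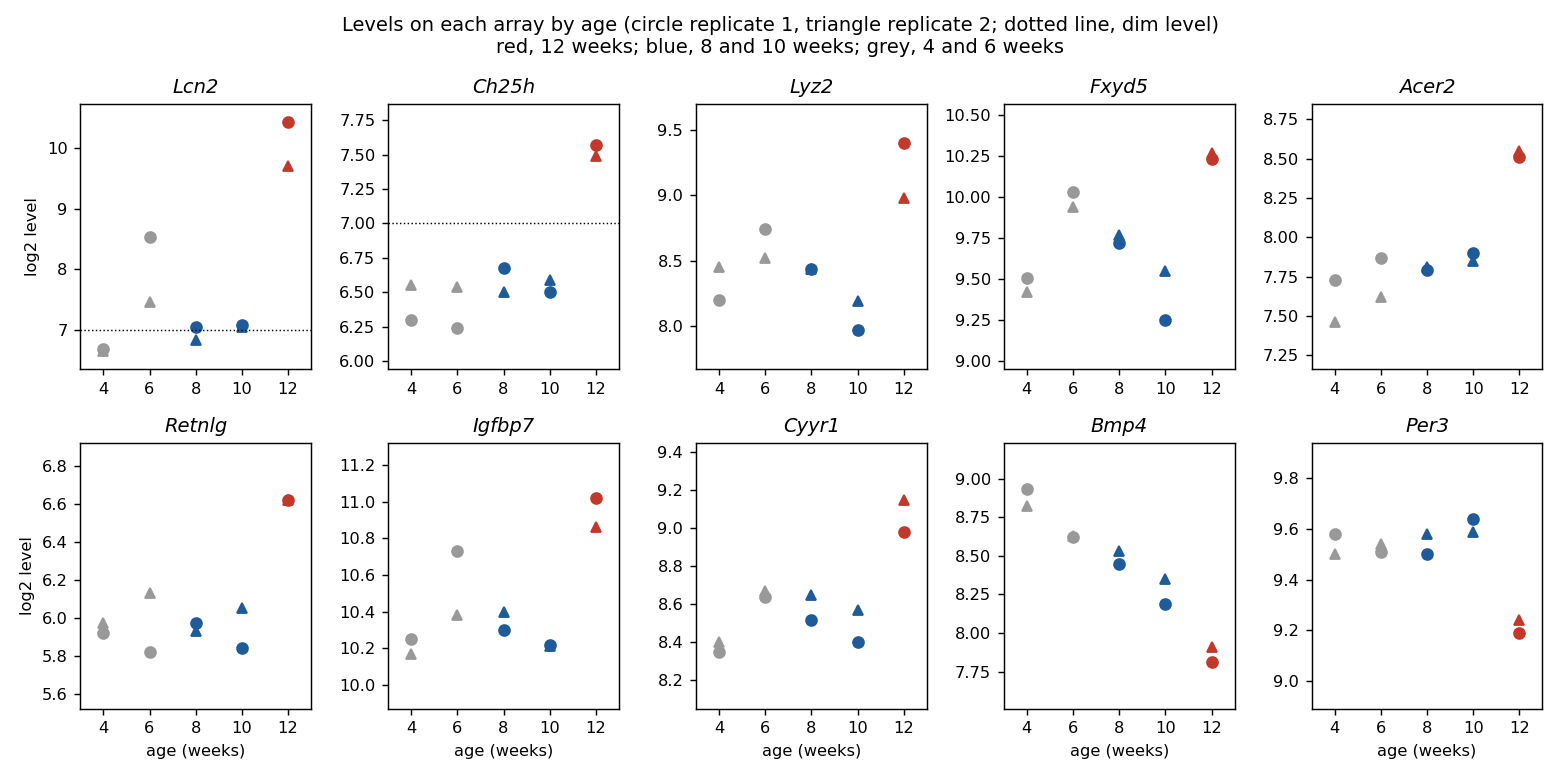
Level of 10 genes on each array (vertical axis, log2 of the deposited values) by age in weeks (horizontal axis), with circles for replicate 1, triangles for replicate 2 and a dotted line at the dim level where it falls in range. Both 12-week points of Lcn2 (10.42 and 9.69) stand above every earlier array, whose highest value is 8.54; Bmp4 and Per3 have both 12-week points below every earlier array.

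Behind Lcn2, the genes of smallest p on the higher side did not pass the adjusted threshold in the main fit. Ch25h encodes cholesterol 25-hydroxylase, an interferon- and NF-kappaB-induced enzyme that makes an antiviral oxysterol. It was at 7.57 and 7.49 on the 12-week arrays, against 6.68 and 6.50 at 8 weeks and 6.50 and 6.59 at 10 weeks. The 12-week arrays lay above the dim level and all 8 earlier arrays below it. Its change was 0.96 ± 0.10 (1.94-fold, adjusted p = 0.067).

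Lyz2, the lysozyme of macrophages and neutrophils, was at 9.40 and 8.98 at 12 weeks, against 8.44 and 8.44 at 8 weeks and 7.97 and 8.19 at 10 weeks. Its change was 0.93 ± 0.13 (adjusted p = 0.15), and replicate 1 was the higher of the 12-week arrays. Fxyd5, a regulator of the sodium pump and of cell adhesion, was at 10.23 and 10.27, above all 4 reference arrays, which ran from 9.25 to 9.77. Its change was 0.68 ± 0.09 (adjusted p = 0.14), and at 6 weeks it had been at 10.03 and 9.94. Igfbp7, a secreted protein of vessel walls that binds insulin-like growth factor, was at 11.02 and 10.86, with 10.21 to 10.40 on the reference arrays, a change of 0.66 ± 0.10 (adjusted p = 0.15). Retnlg, a resistin-like protein of neutrophils, was at 6.62 on both 12-week arrays and at 5.84 to 6.05 on the reference arrays, a change of 0.67 ± 0.09 (adjusted p = 0.14), all below the dim level.

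No gene was called on the lower side. The smallest p belonged to Bmp4, a ligand of the bone morphogenetic protein pathway that limits neural precursor division. It was at 7.81 and 7.91 at 12 weeks, below 8.45 and 8.53 at 8 weeks and 8.19 and 8.35 at 10 weeks, a change of −0.52 ± 0.07 (adjusted p = 0.14). Its level had been 8.93 and 8.82 at 4 weeks and 8.62 and 8.63 at 6 weeks, so the arrays of each age lay below those of the age before. Zc2hc1c, Cyp2c39, Trpc5os, Fcrl5 and Mir140, with changes of −0.36 to −0.64, were dim, and none passed (adjusted p = 0.31 to 0.36).

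The acute-phase and inflammatory list held 43 measured genes, of which 10 (23.3%, against 6.23% of all genes) had both 12-week arrays above all 4 reference arrays and 5 (11.6%, against 10.4%) had both below. Without 8 weeks replicate 2 there were 10 above and 12 below, where 12.5% and 19.8% of all genes were. The median change of the list was 0.00, so the difference was carried by part of it. Among secreted proteins, Lrg1, a leucine-rich glycoprotein of vessels and liver, was at 8.38 and 7.73 at 12 weeks and at 7.18 to 7.52 on the reference arrays. Its change was 0.67 ± 0.18 (adjusted p = 0.56), with 1.0 on replicate 1 and 0.34 on replicate 2. S100a8, a calcium-binding alarmin of neutrophils and monocytes, was dim, at 6.90 and 6.42 against 5.90 to 6.25 (change 0.60 ± 0.15, adjusted p = 0.54). Its partner S100a9, named after its values were seen, was at 6.99 and 6.58, inside the range of 6.50 to 6.99 on the reference arrays. The serum amyloid genes Saa1 (4.14 and 4.34, against 4.02 to 4.49) and Saa2 (5.14 and 5.18, against 4.98 to 5.44) were dim and overlapped.

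Of receptors and enzymes, the next ones were chosen after their values were seen. Osmr, the oncostatin M receptor subunit that signals to STAT3, was at 8.54 and 8.53, above 7.92 to 8.12 on the reference arrays (change 0.53 ± 0.08, adjusted p = 0.15). Icam1, an adhesion molecule for leukocytes, was at 9.02 and 8.80, against 8.34 to 8.71 (0.40 ± 0.12, adjusted p = 0.59). Ptgs2, the inducible cyclooxygenase that granule neurons also express with activity, was at 11.37 and 11.25, against 10.85 to 11.11 (0.34 ± 0.07, adjusted p = 0.43). Cp (change 0.29), C4b (0.26) and Nfkbiz (0.14) made up the 10, all but Cp being above all 8 earlier arrays as well. The cytokine genes Il1b (6.43 and 6.42), Tnf (7.08 and 6.93) and Ccl2 (6.56 and 6.23) were near or below the dim level, and their 12-week arrays overlapped the reference arrays. The 5 members on the lower side, Orm1, Orm2, Fgb, Il6 and Ptx3, were all dim. Gfap, the filament gene of reactive astrocytes, was at 11.36 and 11.25 and between 11.24 and 11.37 on the reference arrays, and Serpina3n at 11.88 and 11.72 overlapped 11.56 to 11.75.

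**Figure D2:**
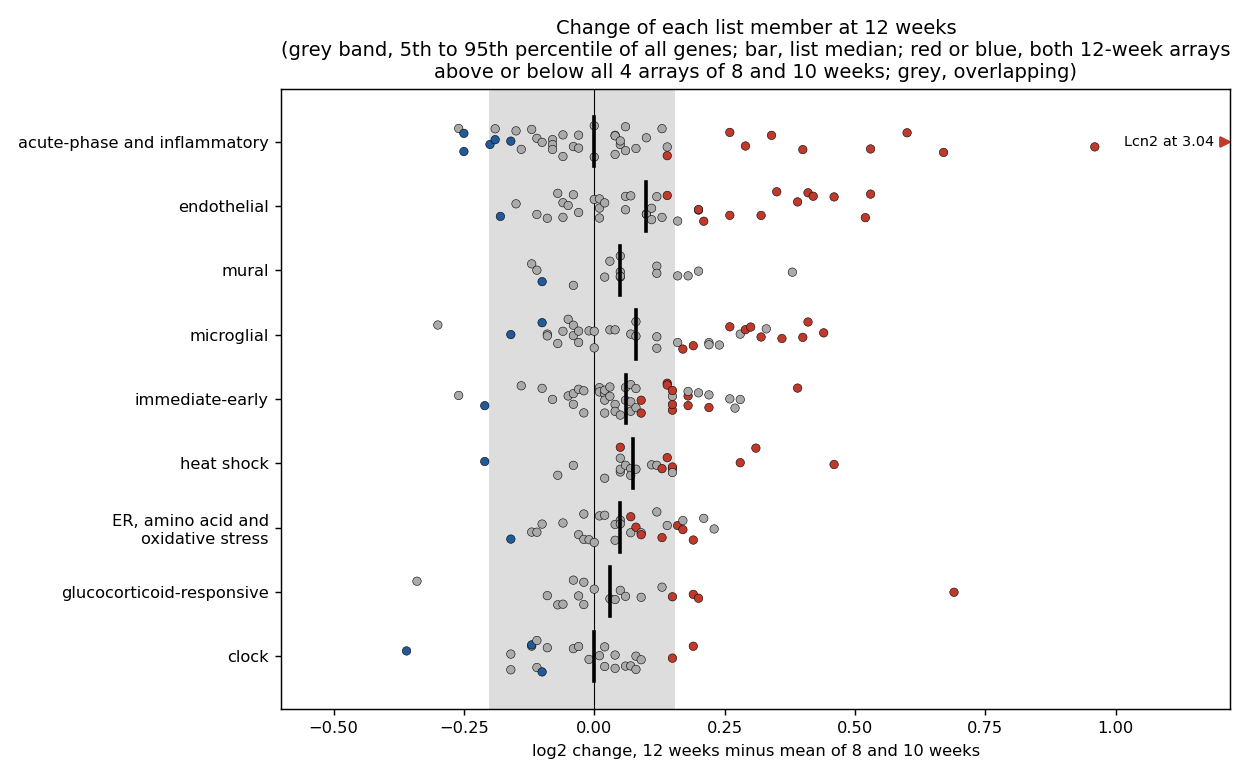
Change at 12 weeks for each measured member of 9 gene lists (horizontal axis, log2, 12 weeks minus the mean of 8 and 10 weeks; 1 row per list). Red and blue points are members with both 12-week arrays above or below all 4 reference arrays, grey points overlap, bars are list medians and the band runs from the 5th to the 95th percentile of all genes, −0.20 to 0.16. Lcn2 at 3.04 lies beyond the axis, and the list medians lie between 0.00 and 0.10.

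Of 38 measured endothelial genes, 12 (31.6%, against 6.23%) had both 12-week arrays above the 4 reference arrays. Both lay below for 1 (2.63%, against 10.4%), and 6 (15.8%, against 3.01%) were above all 8 earlier arrays. The list's median change was 0.10, and 0 members were called. Cyyr1, a small membrane protein, was at 8.98 and 9.15, above 8.40 to 8.65 (change 0.53 ± 0.08, adjusted p = 0.15). Sele, the E-selectin that captures rolling leukocytes on activated endothelium, was at 7.80 and 7.85, above 7.16 to 7.44 (0.52 ± 0.09, adjusted p = 0.31). Ackr1, a chemokine-binding receptor of venules, was at 10.25 and 10.01 against 9.42 to 9.82 (0.46 ± 0.12, adjusted p = 0.55). Vwf, the clotting factor stored in endothelial granules, was at 8.93 and 8.96 against 8.38 to 8.60 (0.42 ± 0.09, adjusted p = 0.51).

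Chosen after their values were seen, the adhesion molecule Vcam1 was at 9.71 and 9.62 against 9.11 to 9.46, and the crosslinking enzyme Tgm2 at 8.81 on both arrays against 8.29 to 8.60. Receptors of angiogenic ligands differed among themselves. Flt1, the decoy receptor of vascular endothelial growth factor, was at 9.87 and 10.14, above 9.57 to 9.84 (0.32 ± 0.09, adjusted p = 0.59), while Kdr, the signalling receptor of the same ligand, was at 7.79 and 8.05 and overlapped 7.56 to 8.03. The tight junction gene Cldn5 was at 9.05 and 9.45, below and above the 4 reference arrays (9.12 to 9.34), so its 12-week arrays straddled them.

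Most endothelial genes were higher on 12 weeks replicate 2 than on replicate 1, but the 4 of largest change were raised on both. Their differences from 8 and 10 weeks on replicates 1 and 2 were 0.44 and 0.61 (Cyyr1) and 0.50 and 0.54 (Sele). They were 0.58 and 0.34 for Ackr1, and 0.40 and 0.43 for Vwf. Replicate 2 exceeded replicate 1 in 31 of 38 members, where 43.8% of all genes were higher on replicate 1. The list's median difference from 8 and 10 weeks was 0.00 on replicate 1 and 0.22 on replicate 2. The share of members above all 4 reference arrays was 34.2% on replicate 1 (12.8% of all genes) and 60.5% on replicate 2 (18.8% of all genes). Without 12 weeks replicate 2 the median change of the list was 0.00. The blood-brain barrier transporters Slco1a4 (8.64 and 9.10) and Abcb1a (8.92 and 9.36), taken as the members that differed most between the 12-week arrays, were below all 4 reference arrays on replicate 1 and above them on replicate 2.

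Mural cell genes, of pericytes and smooth muscle, also differed between the 12-week arrays. Of 16 members 0 had both 12-week arrays above the reference arrays (6.23% of all genes) and 1, Cspg4, had both below (6.25%, against 10.4%). On replicate 2, 15 of the 16 were higher than on replicate 1, where 43.8% of all genes were higher on replicate 1. The median difference from 8 and 10 weeks was −0.05 on replicate 1 and 0.16 on replicate 2. Acta2, smooth muscle actin, was at 9.21 on replicate 1, inside the reference range of 9.14 to 9.34, and at 9.95 on replicate 2 (change 0.38 ± 0.18, adjusted p = 0.65). Anpep, an aminopeptidase of pericytes, was at 8.00 and 8.56 against 7.79 to 8.36, and Kcnj8, a potassium channel of pericytes, at 8.06 and 8.48 against 8.00 to 8.27. Pdgfrb, the receptor that recruits pericytes, was at 9.17 and 9.42 and overlapped 9.22 to 9.55 (−0.11 ± 0.08).

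Markers of meningeal fibroblasts moved with the vascular lists. All 12 were higher on 12 weeks replicate 2 than on replicate 1, where 43.8% of all genes were higher on replicate 1. The median of replicate 1 minus replicate 2 over the 12 markers was −0.34. Their mean level was 8.67 on replicate 1 and 9.0 on replicate 2, against 8.88 and 8.85 at 8 weeks and 8.44 and 8.69 at 10 weeks. Dcn, the matrix proteoglycan decorin, was at 10.03 and 10.63 at 12 weeks and ran from 9.28 to 10.54 on the reference arrays. Of the 12 markers 1 had both 12-week arrays above the reference arrays (8.33%, near the 6.23% of all genes). Both lay below for 1 (8.33%, near the 10.4% of all genes). The part of meningeal tissue in the vascular differences was not tested.

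**Figure D3:**
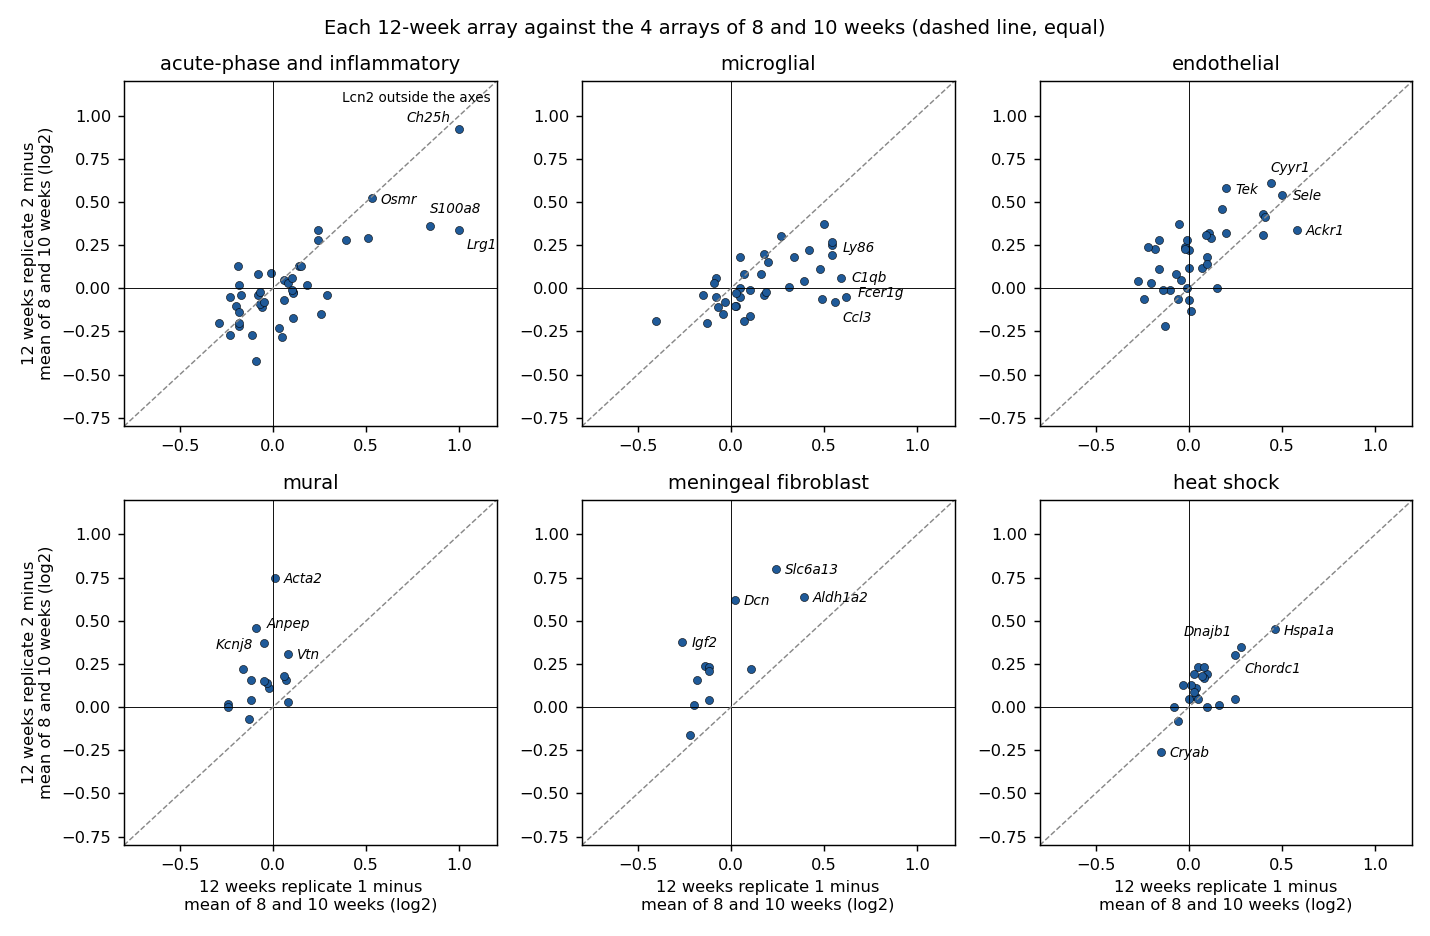
Each point is a list member, placed by its difference from the mean of 8 and 10 weeks on 12 weeks replicate 1 (horizontal axis, log2) and on replicate 2 (vertical axis, log2), with a dashed line where both are equal. Microglial members lie mostly below the line (29 of 38 higher on replicate 1), endothelial (31 of 38), mural (15 of 16) and meningeal fibroblast members (12 of 12) mostly above it. Of all genes, 43.8% were higher on replicate 1.

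Of 38 microglial genes, 10 (26.3%, against 6.23%) had both 12-week arrays above the 4 reference arrays. Both lay below for 2 (5.26%, against 10.4%), and 9 (23.7%, against 3.01%) were above all 8 earlier arrays. The median change was 0.08, and 0 members were called. Ctss, a lysosomal protease of microglia, was at 10.58 and 10.45, above 10.00 to 10.17 (change 0.44 ± 0.07, adjusted p = 0.18). Cd14, the co-receptor for bacterial lipopolysaccharide, was at 7.77 and 7.51, above 7.07 to 7.30 (0.41 ± 0.09, adjusted p = 0.51). C1qc, a chain of the complement component C1q, was at 10.89 and 10.61, above 10.29 to 10.41 (0.40 ± 0.09, adjusted p = 0.51), and Ly86, a partner of a toll-like receptor homologue, at 11.16 and 10.82 against 10.56 to 10.70 (0.36 ± 0.10, adjusted p = 0.58).

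Markers of resting microglia went in both directions or overlapped. Cx3cr1, the fractalkine receptor, was at 9.92 and 9.86 against 9.77 to 9.95. The purinergic receptor P2ry12 was at 9.38 and 9.25 against 9.19 to 9.51, and Tmem119 at 9.43 and 9.56 against 9.23 to 9.51, all 3 overlapping. The following were chosen after their values were seen. Gpr34 (6.94 and 6.87, against 7.01 to 7.12) and Sall1 (8.76 and 8.87, against 8.88 to 9.0) lay below all 4 reference arrays. P2ry13, another purinergic receptor, was at 9.51 and 9.72 against 9.67 to 10.12 (change −0.30 ± 0.09, adjusted p = 0.59). Csf1r, the receptor on which microglial survival depends, lay above, at 10.81 and 10.76 against 10.50 to 10.65, as did Olfml3 (10.73 and 10.57, against 10.28 to 10.52). Itgam (9.15 and 8.95, against 8.68 to 8.81) and Laptm5 (10.60 and 10.63, against 10.21 to 10.45) lay above too. Trem2 was at 9.03 and 8.77 against 8.87 to 9.02.

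Here replicate 1 was the higher array. It exceeded replicate 2 in 29 of 38 members, where 43.8% of all genes were higher on replicate 1. The median difference from 8 and 10 weeks was 0.13 on replicate 1 and −0.01 on replicate 2, and without 12 weeks replicate 1 the list's median was −0.01. Members above all 4 reference arrays made up 57.9% on replicate 1 (12.8% of all genes) and 31.6% on replicate 2 (18.8% of all genes). The largest gaps between the 12-week arrays were those of Fcer1g (10.27 and 9.61), Ccl3 (7.99 and 7.35) and Tyrobp (9.53 and 8.98), whose replicate 2 values lay below the highest reference array. Acute-phase members also ran higher on replicate 1, in 30 of 43.

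Markers of blood-borne cells were given beside these lists because Lyz2, Retnlg and S100a8 are also genes of neutrophils and monocytes. Of 16 measured platelet and leukocyte genes, 4 (25%, against 6.23%) lay above all 4 reference arrays: Lyz2, Retnlg, Ppbp and Ptprc. Below them lay 2 (12.5%, against 10.4%), Cd3e and Cd163. The change was positive in 8 members and negative in 8, with a median of 0.00. Lyz2 and Retnlg were already among the genes of smallest p, so the share of 25% is not independent of that choice. Ppbp, a platelet chemokine, was dim at 6.96 and 6.87 against 6.11 to 6.49 (change 0.54 ± 0.12, adjusted p = 0.51). The other platelet genes Pf4 (6.90 and 7.17, against 6.85 to 7.36) and Itga2b (7.63 and 7.68, against 7.59 to 7.91) overlapped. The neutrophil genes Ly6g (6.09 and 5.69), Ngp (5.87 and 5.75) and Camp (6.98 and 7.01) were at about the dim level or below it on both 12-week arrays. The part of blood cells in the list differences was not tested. Alas2 (7.84 and 7.81, against 7.63 to 7.71) and Slc4a1 (7.64 and 7.73, against 7.59 to 7.99) were the measured genes of red blood cells.

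Of 47 immediate-early genes, 11 (23.4%, against 6.23%) had both 12-week arrays above the reference arrays, 1 (2.13%, against 10.4%) had both below, and 0 were called. The change was positive in 36 of 47, where 41.5% of all genes had a positive change, and its median was 0.06, against −0.02 over all genes. The band of −0.20 to 0.16 holds most single genes and is too wide to judge the median of a list by. The median difference from 8 and 10 weeks was 0.07 on each of the 12-week arrays, so here both arrays gave the same value. Fosb, a partner of Jun proteins, was at 8.83 on both 12-week arrays, above 8.29 to 8.55 (change 0.39 ± 0.08, adjusted p = 0.43). Fos, the classical activity marker, was at 7.97 and 7.83 and overlapped a wide reference range of 7.28 to 7.92 (0.27 ± 0.17, adjusted p = 0.72). Npas4, an activity-dependent transcription factor of neurons, was at 8.04 and 8.23 against 7.55 to 8.06 (0.28 ± 0.22). Fosl1 was at 7.44 and 7.23 against 7.43 to 7.72 (−0.26 ± 0.10).

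Chosen after their values were seen, Arc, a plasticity gene of dendrites, was at 10.41 and 10.51 against 9.93 to 10.53, and Egr1 at 10.19 and 10.43 against 10.00 to 10.18. At 4 weeks Egr1 had been at 10.68 and 10.51, so 12 weeks lay between the youngest and the reference ages. Of the 47, 4 were above all 8 earlier arrays (8.51%, against 3.01%): Fosb, Fosl2, Ier2 and Zfp36.

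Heat shock genes had 7 of 22 measured members (31.8%, against 6.23%) above all 4 reference arrays and 1 (4.55%, against 10.4%) below. Of the 22, 0 were called. The change was positive in 19 of 22 (41.5% of all genes), with a median of 0.08. Hspa1a, the inducible HSP70 chaperone whose promoter is shown above, was at 9.51 and 9.50, against 8.88 and 8.96 at 8 weeks and 9.30 and 9.05 at 10 weeks (change 0.46 ± 0.09, adjusted p = 0.43). It has a near-identical copy, Hspa1b, so its signal may come from either gene. Dnajb1, the HSP40 partner of HSP70, was at 9.55 and 9.62 against 9.03 to 9.36 (0.31 ± 0.10, adjusted p = 0.59), and Chordc1, an HSP90 co-chaperone, at 10.21 and 10.27 against 9.71 to 10.11 (0.28 ± 0.09, adjusted p = 0.59). The lowest reference value of both belonged to 8 weeks replicate 1, the array that correlated least with the others. Cryab, a small heat shock protein of glia, ran the other way, at 11.08 and 10.97 against 11.21 to 11.27 (−0.21 ± 0.08, adjusted p = 0.62). The constitutive chaperones Hspa2 (11.17 and 11.15, against 11.15 to 11.27) and Hspa4 (11.63 and 11.70, against 11.52 to 11.64) differed by no more than 0.07.

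Of 30 genes of the endoplasmic reticulum, amino acid and oxidative stress responses, 7 (23.3%, against 6.23%) were above all 4 reference arrays. Below them was 1 (3.33%, against 10.4%), and 0 were above all 8 earlier arrays (3.01% of all genes). Hspa5, the chaperone BiP, was at 12.16 and 12.26 against 11.94 to 12.12 (change 0.17 ± 0.08, adjusted p = 0.66), and Manf, a secreted stress protein of the endoplasmic reticulum, at 9.64 and 9.68 against 9.40 to 9.52 (0.19 ± 0.09). Hspa5 had been at 12.33 on 6 weeks replicate 1, above both 12-week arrays. Hsp90b1 (0.05 ± 0.06) and Dnajc3 (−0.01 ± 0.06) overlapped. The stress-induced factors Atf4 (9.01 and 9.05) and Ddit3 (9.06 and 9.12), chosen after their values were seen, differed by −0.02 and 0.04. Slc7a11, the cystine transporter, was at 10.44 and 11.07 against 10.01 to 10.87, and its replicate 1 minus replicate 2 difference at 12 weeks was −0.62.

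Among 19 glucocorticoid-responsive genes, 4 (21.1%, against 6.23%) lay above all 4 reference arrays and 0 lay below (10.4% of all genes). The same 4 lay above all 8 earlier arrays (3.01% of all genes). Acer2, an alkaline ceramidase, was at 8.51 and 8.55, against 7.79 and 7.81 at 8 weeks and 7.90 and 7.85 at 10 weeks (change 0.69 ± 0.09, 1.61-fold, adjusted p = 0.14). Its other probe set, which is dim, had a change of −0.06, and the mean over both gave 0.31. Acer2 was also among the genes of smallest p in the whole table, so the share of 21.1% is not independent of these data. Nr3c2, the mineralocorticoid receptor (0.15 ± 0.05), Pdk4, a brake on pyruvate oxidation (0.20 ± 0.06), and Errfi1, an inhibitor of epidermal growth factor receptor signalling (0.19 ± 0.07), were the others. The glucocorticoid receptor gene Nr3c1 (9.99 and 9.95, against 9.92 to 10.05) and Fkbp5, its co-chaperone and a sensitive target (10.00 on both arrays, against 9.83 to 10.11), overlapped. Plin4, a lipid droplet protein, was at 7.66 and 7.83 against 7.76 to 8.42 (−0.34 ± 0.10, adjusted p = 0.59). The list's median change was 0.03.

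Of 24 clock genes, 2 (8.33%, against 6.23%) lay above all 4 reference arrays and 3 (12.5%, against 10.4%) below, with a median change of 0.00. The same 3, Per3, Cry2 and Csnk1e, lay below all 8 earlier arrays (12.5%, against 4%), and 0 lay above them (3.01% of all genes). Csnk1e had already gone from 11.86 and 11.8 at 4 weeks to 11.63 and 11.54 at 10 weeks, with 11.54 and 11.5 at 12 weeks. The change of Cry2 was only −0.1. Without 10 weeks replicate 2 there were 3 above and 6 below, where 8.06% and 14.7% of all genes were. Per3, a period gene of the repressive arm, was the exception in size. It was at 9.19 and 9.24 at 12 weeks, against 9.50 and 9.58 at 8 weeks, 9.64 and 9.59 at 10 weeks and 9.50 to 9.58 at 4 and 6 weeks. Both 12-week arrays lay below all 8 earlier arrays, and the change was −0.36 ± 0.06 (1.29-fold lower, adjusted p = 0.20). Nr1d1, the REV-ERB-alpha repressor of Arntl, was at 12.35 and 12.24 against 11.93 to 12.23 (0.19 ± 0.08, adjusted p = 0.64). Dbp, an output gene of the clock, was at 10.67 and 10.40 against 10.46 to 10.89 (−0.16 ± 0.10), and Cry1 at 8.44 and 8.75 against 8.69 to 8.83 (−0.16 ± 0.08). The activators Clock (11.01 and 10.96, against 10.92 to 11.02) and Arntl (9.17 and 9.25, against 9.04 to 9.25) overlapped. The labels give no time of day.

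**Figure D4:**
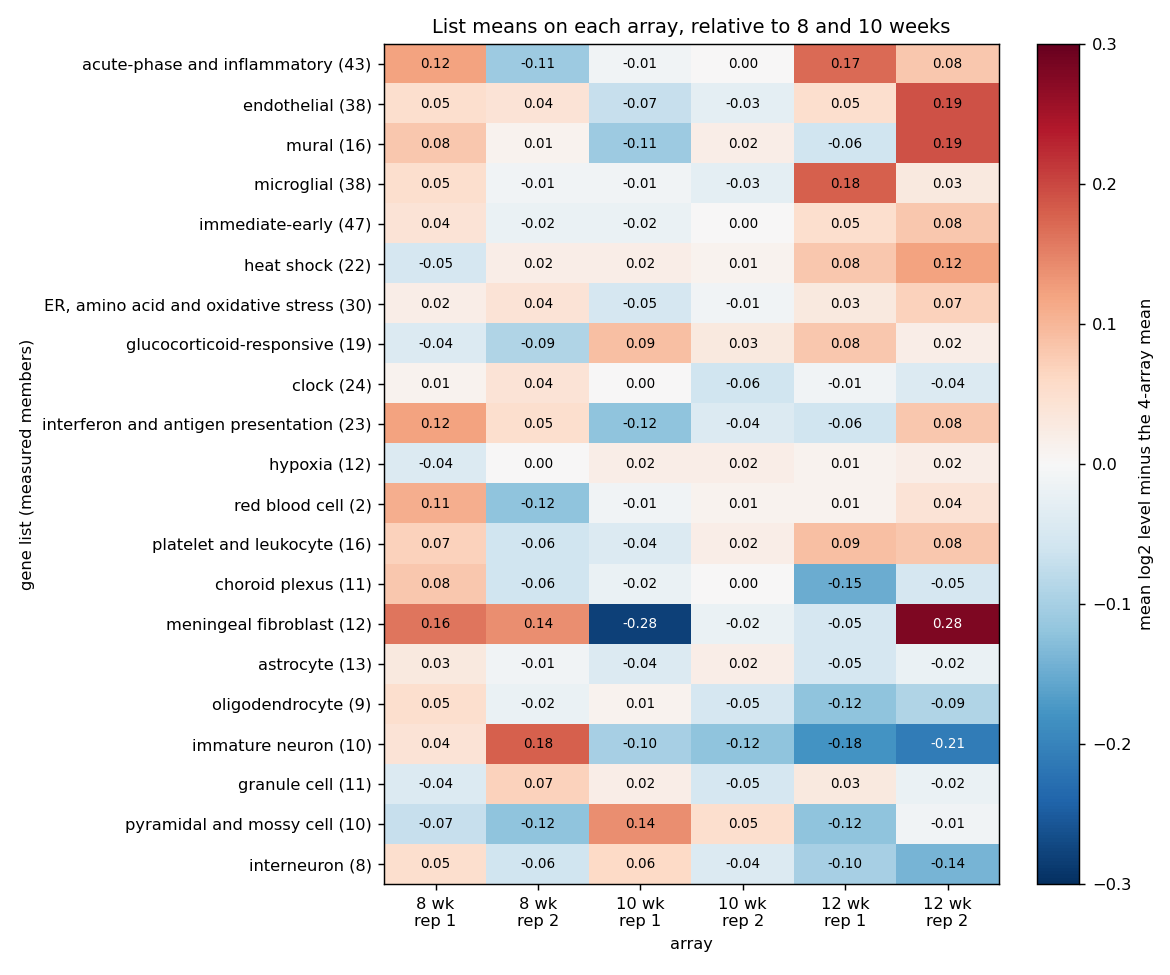
Mean level of each gene list on the 6 arrays, as the difference from its mean over the 4 arrays of 8 and 10 weeks (colour and printed number, log2; columns are arrays, rows are lists with the number of measured members). The microglial list reads 0.18 and 0.03 on the 12-week arrays, the mural list −0.06 and 0.19, the meningeal fibroblast list −0.05 and 0.28, and the immature neuron list −0.18 and −0.21.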

How the data were processed

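Values are log2 levels per probe set as deposited in the series' value table. The scale was read from the range of the values. How the authors corrected background, summarized probes and normalized arrays is not given in the sources used here. The build was mm10, per the submitters' processing notes. Of 25254 probe sets, 21496 had 1 gene in the platform annotation, 1565 several and 2193 none; the probe set with the highest mean stood for each of 19752 genes, with no filter. Coordinates and promoters come from RefSeq tables of GRCm38.p6.

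Age was a factor over all 10 arrays in limma 3.58.1 (R 4.3.3), with 5 residual degrees of freedom, a two-sided test and a threshold of 0.05. The script was tested on simulated data. An exact permutation test of 2 against 4 arrays has only 15 splits, so it cannot give a small p, and was not used. The number of arrays limits precision. Replicate numbers were not taken as pairs: same-numbered arrays had deviations that correlated between −0.34 and 0.16, and the labels name no shared source. No scan date was given.

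The comparison, the 21 gene lists and the tests were chosen with earlier results of these data known. Named genes are those past the threshold, the 8 of smallest p in each direction, and for 9 lists the first 3 measured members and the 4 of largest change (the first 3 for the other 12). Other genes were named after their values were seen. Predicted genes were not named. Listed genes without a probe set of their own were not analysed here. Alternatives were other normalizations, centrings, filters, variance models, array sets, reference ages and a replicate block.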

Additional observations from a re-analysis of the deposited data

Results flagged for a closer look

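Among the 4 arrays of 8 and 10 weeks, 1 array stood apart from the other 3 for 8 of 103 named genes, where chance flags about 1 in 20 groups. At 8 weeks replicate 1, Dnajb1 was at 9.03 (the others at 9.35 to 9.36), Acta2 at 9.34 (9.14 to 9.16) and Col1a1 at 9.12 (8.84 to 8.89). At 8 weeks replicate 2, Lcn2 was at 6.84 (7.05 to 7.09) and Ppbp at 6.11 (6.44 to 6.49). At 10 weeks replicate 1, Cd14 was at 7.07 (7.27 to 7.30) and Pf4 at 6.85 (7.28 to 7.36), and at 10 weeks replicate 2, C1ql2 was at 11.54 (11.62 to 11.63). The mean of the reference arrays used for Lcn2, Dnajb1, Cd14 and Ppbp therefore includes a low value on 1 array. For these genes both 12-week arrays lay above the other 3 arrays as well.

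A probe set for which the platform annotation gives no gene, number 10351206, was also higher at 12 weeks. It was at 8.31 and 7.73 there, at 6.63 and 6.31 at 8 weeks, at 6.32 and 6.43 at 10 weeks, and at 6.28 to 6.49 at 4 and 6 weeks. The change was 1.60 ± 0.16, or 3.03-fold, with an adjusted p of 0.044 by limma over 25254 probe sets.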

How the results depend on the processing

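The count of genes called between 12 weeks and the reference ages, 1 as reported, was 2 after quantile normalization (Lcn2 and Ch25h), 18 with trended and robust variances, 3 with the 6 arrays as 2 groups (Lcn2, Ch25h and Acer2), 4 without 6 weeks replicate 1 and 8 weeks replicate 1 together (chosen after seeing the data; 2 higher and 2 lower), and 0 against 10 weeks or 8 weeks alone. Leaving out 1 array at a time gave 0 to 2; without 12 weeks replicate 2 the 1 call was Scgb3a1 and not Lcn2. The replicate block gave 1 call, Lcn2. At an unadjusted p under 0.05 the comparison held 4530 genes without 8 weeks replicate 2, against 1518. For 10 against 8 weeks the count was 0 in all 19 alternatives, with 379 to 3343 genes at an unadjusted p under 0.05.

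Lcn2 kept its direction in all 22 alternatives and its call in 12 (adjusted p from 0.0012 to 0.23). Of 102 named genes not called, 11 were called in some alternative and 30 changed sign in some. Ch25h was called in 6 of its 21 (adjusted p from 0.0071 to 0.49). List medians were positive in all 22 alternatives for immediate-early, heat shock and endoplasmic reticulum genes, and negative for immature neuron, oligodendrocyte and interneuron genes; the acute-phase median changed sign in 10. Members above the 4 reference arrays numbered 10 to 14 of 43 acute-phase, 12 to 15 of 38 endothelial, 10 to 13 of 38 microglial and 7 to 9 of 22 heat shock genes when these were renormalized or 1 reference array was left out. The share of all genes above also moved, from 6.23% as reported to 8.23% after quantile normalization and 12.5% without 8 weeks replicate 2. Levels near or below the dim level compress a fold, and 2 arrays per age limit every error given.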

Other observations

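Of 10 measured immature neuron genes, 6 (60%, against 10.4% of all genes) had both 12-week arrays below all 4 reference arrays. The same 6 lay below all 8 earlier arrays (4% of all genes), and 3 others, Sox11, Neurod1 and Calb2, had a small positive change. The median change was −0.24, and 0 were called by limma. Cd24a, a surface marker of neuroblasts, was at 8.40 and 8.36 at 12 weeks, against 8.90 and 9.38 at 8 weeks, 8.67 and 8.78 at 10 weeks and 10.31 and 10.25 at 4 weeks (change −0.55 ± 0.12, adjusted p = 0.51). Without 6 weeks replicate 1 and 8 weeks replicate 1 it was called (adjusted p = 0.029). Dcx, the microtubule protein doublecortin of migrating neurons, was at 8.98 and 9.09 against 9.11 to 9.50 (−0.27 ± 0.06, adjusted p = 0.51), and Igfbpl1 at 8.01 and 8.11 against 8.27 to 8.69 (−0.40 ± 0.08, adjusted p = 0.37). Sox11, at 9.85 and 9.78 against 9.68 to 9.91, overlapped. The levels of Dcx, Cd24a and Igfbpl1 were highest at 4 weeks and lower at each later age as means, so 12 weeks was the end of an order over all ages.

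For the lists that follow, 6.23% of all genes lay above and 10.4% below the reference arrays. Oligodendrocyte genes had 3 of 9 below (33.3%, against 10.4%) and 0 above, with a median of −0.11: Mog, a myelin surface protein, was at 9.26 and 9.35 against 9.36 to 9.66. Their mean level fell over the series, from 10.8 and 10.78 at 4 weeks to 10.38 and 10.33 at 10 weeks. At 12 weeks it was 10.25 and 10.28, so the difference is not particular to 12 weeks. Astrocyte genes had 5 of 13 below (38.5%, against 10.4%) and 0 above (median −0.02), among them the gap junction gene Gja1, at 11.60 and 11.62 against 11.66 to 11.72. Interneuron genes had 3 of 8 below (37.5%, against 10.4%) and 0 above (median −0.12), with Gad1 at 12.01 and 11.94 inside 11.93 to 12.07. Pyramidal and mossy cell genes had 0 of 10 on either side (median −0.11), and granule cell genes had 1 of 11 above and 1 below (9.09% each, median 0.03). Choroid plexus genes had 2 of 11 below (18.2%, against 10.4%) and 0 above (median −0.07), and Ttr was at 9.41 and 10.11 against 9.41 to 9.77.

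Interferon and antigen presentation genes had 2 of 23 above (8.7%, against 6.23%) and 1 below (4.35%, against 10.4%), with a median of 0.01. Ifit3, an interferon-induced antiviral gene, was at 8.18 on replicate 1 and 8.77 on replicate 2 against 8.62 to 9.0, while Ifitm3, a membrane barrier to virus entry chosen after its values were seen, was at 10.14 and 9.77 against 9.22 to 9.56 (change 0.60 ± 0.15, adjusted p = 0.55). Hypoxia genes had 2 of 12 above (16.7%, against 6.23%) and 1 below (8.33%, against 10.4%), with a median of 0.00, with Vegfa at 9.57 and 9.54 against 9.45 to 9.55. The red blood cell list had 1 of 2 above (median 0.02), too few genes for a share.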
